A study of Mus musculus with 5 samples.

Results

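Transcripts of 6 genes that mark or serve the helper arm of the T cell response were followed in single T cells from the brains of stressed mice: the coreceptor Cd4, the ligands Cd40lg and Tnfsf8, the receptors Icos and Tnfrsf4, and the folate receptor family member Izumo1r. These 6 were chosen by name out of 15952 genes with a unique molecular identifier (UMI, a tag that counts 1 captured RNA molecule) in the cells kept. Wells were kept if 1 cell had been sorted into them, if they held 400 or more UMIs outside spike-ins and if at most 30% of these came from mitochondrially encoded genes. At least 1 of the 6 was found in 333 of 1482 kept cells (22.5%).

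All mice carried Grl1loxP/loxP alleles, a glucocorticoid receptor gene flanked by loxP sites, and all received foot shocks. Into the brain ventricles, 3 mice had been given TAT-CRE, a Cre recombinase that can enter cells, and 2 had been given PBS. TAT-CRE 207, 208 and 215 were 18, 18 and 19 weeks old, and PBS 216 and 218 were 19 and 16 weeks old. On day 14 after the stress, brain tissue without the choroid plexus was sorted for cells that were CD45+, TCRβ+ and CD11b-, by antibody, and their RNA was counted by a plate-based 3′ method. The labels name each library by a replicate number of its own, taken here as 1 mouse. They do not say whether animals were pooled or whether the recombinase acted in the T cells themselves. The aim was a loss of the receptor at the choroid plexus, so its transcript Nr3c1 in T cells does not check the labels. Nr3c1 stood at 175, 141 and 156 CPM (UMIs scaled to a common library total) in TAT-CRE mice and 191 and 222 CPM in PBS mice (log2 fold change -0.43 ± 0.29 SE, adjusted p = 0.9997, edgeR's quasi-likelihood test).

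CD4 binds MHC class II and brings the kinase Lck to the T cell receptor, and in mature T cells it is largely exclusive of the CD8 alpha and beta chains. Activated helper T cells show CD40 ligand to B cells and other antigen-presenting cells, and ICOS and OX40 (Tnfrsf4) pass on costimulation through PI3 kinase and TRAF adaptors. CD30 ligand (Tnfsf8) binds CD30, and Izumo1r encodes folate receptor 4, a surface protein of mouse regulatory and anergic CD4 T cells.

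The TAT-CRE mice 207, 208 and 215 gave 311, 303 and 298 kept cells, and PBS 216 and 218 gave 296 and 274, with 362457 to 692346 UMIs in TAT-CRE mice and 554994 and 839188 in PBS mice. Median depth per cell was 1953, 993 and 1600.5 UMIs in TAT-CRE mice and 1410 and 2660 in PBS mice. TAT-CRE 208 stood apart: a chi-square comparison of its gene counts with each other library gave 11.4 to 13.4 per degree of freedom, where the remaining pairs gave at most 6.5. Ribosomal RNA genes took 28.3% of its UMIs and 43.9% to 48.0% elsewhere. All 8 T cell markers were found. The same 384 well barcodes were used in every plate, and no well was listed in more than 1 library. Of the NK cell list, whose 6 genes all had UMIs, the summed level outside ribosomal RNA was 78.5 to 259 CPM in TAT-CRE mice and 321 to 508 CPM in PBS mice (exact permutation p = 0.1, two-sided, the smallest that 3 against 2 mice can give). Eomes, which is also in the list of CD8 and cytotoxic genes, gave 45.3% of its UMIs. Klre1 had 141 UMIs in 37 cells, but Ncr1 had 4 in 1 cell and Tyrobp 10 in 4 cells. The part of this list in the values below was not tested. The other lists held B cell, monocyte, microglia, dendritic cell and oligodendrocyte genes, and Cd79a, Lyz2, Csf1r, Adgre1, P2ry12, Tmem119, Flt3 and Mog were at 0. Of 20 empty wells, 0 had a UMI of any of the 6 genes, which allows a share of up to 15% of such wells.

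The genes were sparse. Icos was found in 112 of 1482 cells (7.56%, exact Clopper-Pearson 95% interval 6.26% to 9.02%) and Cd4 in 110 (7.42%, 6.14% to 8.88%). Cd40lg was found in 57 cells, Izumo1r in 54, Tnfsf8 in 49 and Tnfrsf4 in 43 (2.90%, 2.11% to 3.89%). For comparison, Cd8a was found in 434 cells and Cd8b1 in 423. These intervals cover counting error only, and a gene missing from a cell may still be expressed there. Cells with a UMI of any of the 6 were also deeper, with a median of 2199 UMIs against 1507 in the others. Shares were therefore also computed after thinning every cell to 400 UMIs, which is the smallest depth kept, so that no further cell was lost.

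Cd4, on chromosome 6 (124864692 to 124888221, minus strand, build mm10), had 99, 53 and 52 UMIs in the TAT-CRE mice (in the order 207, 208, 215, kept throughout) and 50 and 64 in the PBS mice (216, 218). It was found in 32, 21 and 25 TAT-CRE cells and in 16 and 16 PBS cells. After thinning, the share of cells with Cd4 was 3.60%, 3.93% and 3.17% in TAT-CRE mice and 2.92% and 1.81% in PBS mice. Every TAT-CRE mouse lay above both PBS mice, with means of 3.56% ± 0.383 (SD, n = 3) in TAT-CRE mice and 2.37% ± 0.786 (SD, n = 2) in PBS mice (exact permutation p = 0.1, two-sided). That p is the smallest that 3 against 2 mice can give, so this design cannot reach 0.05 for a single value. The transcript was thinly spread: 50 of the 110 Cd4 cells had 1 UMI of it, and the highest count was 19, in a cell of PBS 218.

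Icos, the inducible costimulator on chromosome 1 (60977927 to 61000320, plus strand), had 99, 76 and 73 UMIs in TAT-CRE mice and 42 and 93 in PBS mice. As CPM this was 143, 210 and 124 CPM in TAT-CRE mice and 75.7 and 111 CPM in PBS mice, without overlap. The thinned share was 3.57%, 4.82% and 3.63% in TAT-CRE mice and 1.96% and 2.90% in PBS mice, again without overlap (means 4.01% ± 0.702 and 2.43% ± 0.659, exact permutation p = 0.1, two-sided, n = 3 and 2). The 27, 26 and 26 cells with Icos in the TAT-CRE mice were near equal in number, against 14 and 19 in the PBS mice. Icos overlaps an annotated gene on the same strand, Gm37039, which had 2 UMIs in all kept cells.

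Cd40lg, which encodes CD40 ligand (chromosome X, 57212143 to 57224042, plus strand), showed no separation of the groups. It had 33, 27 and 10 UMIs in TAT-CRE mice and 13 and 50 in PBS mice, and the thinned share was 1.44%, 2.08% and 0.633% in TAT-CRE mice and 0.733% and 1.92% in PBS mice. Each group held a low and a high mouse, and the ranges overlapped almost fully (means 1.38% ± 0.726 and 1.33% ± 0.840, exact permutation p = 0.9, two-sided, n = 3 and 2). No cell held more than 9 UMIs of Cd40lg.

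Tnfrsf4 (chromosome 4, 156013843 to 156016612, plus strand) encodes OX40 and varied widely between mice: its highest thinned share was 8.42 times the lowest, a spread shared with Tnfsf8 (8.58 times) and larger than in the other 4 genes. It had 4, 13 and 51 UMIs in TAT-CRE mice and 6 and 39 in PBS mice, found in 4, 4 and 18 TAT-CRE cells and 3 and 14 PBS cells. TAT-CRE 215 and PBS 218 thus held most of it. The thinned share was 0.420%, 0.664% and 2.72% in TAT-CRE mice and 0.323% and 1.21% in PBS mice (means 1.27% ± 1.26 and 0.767% ± 0.628, exact permutation p = 0.8, two-sided, n = 3 and 2).

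Tnfsf8 (chromosome 4, 63831308 to 63861347, minus strand) had 33, 51 and 43 UMIs in TAT-CRE mice and 6 and 51 in PBS mice. As CPM this was 47.7, 141 and 73.1 in TAT-CRE mice and 10.8 and 60.8 in PBS mice. PBS 216 was the lowest mouse and PBS 218 lay within the range of the TAT-CRE mice. The thinned share was 1.46%, 2.06% and 1.33% in TAT-CRE mice and 0.240% and 1.69% in PBS mice (means 1.62% ± 0.392 and 0.965% ± 1.02, exact permutation p = 0.5, two-sided, n = 3 and 2). Few cells carried most of these counts: the 5 highest cells held 40.2% of all Tnfsf8 UMIs, and 1 cell of TAT-CRE 215 held 28 of that mouse's 43.

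Izumo1r (chromosome 9, 14885814 to 14903949, minus strand) had 37, 41 and 27 UMIs in TAT-CRE mice and 17 and 32 in PBS mice, in 12, 15 and 12 TAT-CRE cells and 7 and 8 PBS cells. On the CPM scale this was 53.4, 113 and 45.9 in TAT-CRE mice and 30.6 and 38.1 in PBS mice. The thinned share was 1.42%, 2.68% and 1.52% in TAT-CRE mice and 1.11% and 1.24% in PBS mice. The groups did not overlap in either measure, though TAT-CRE 207 and 215 were close to PBS 218 (means of the share 1.88% ± 0.702 and 1.18% ± 0.0878, exact permutation p = 0.3, two-sided, n = 3 and 2).

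**Figure D1:**
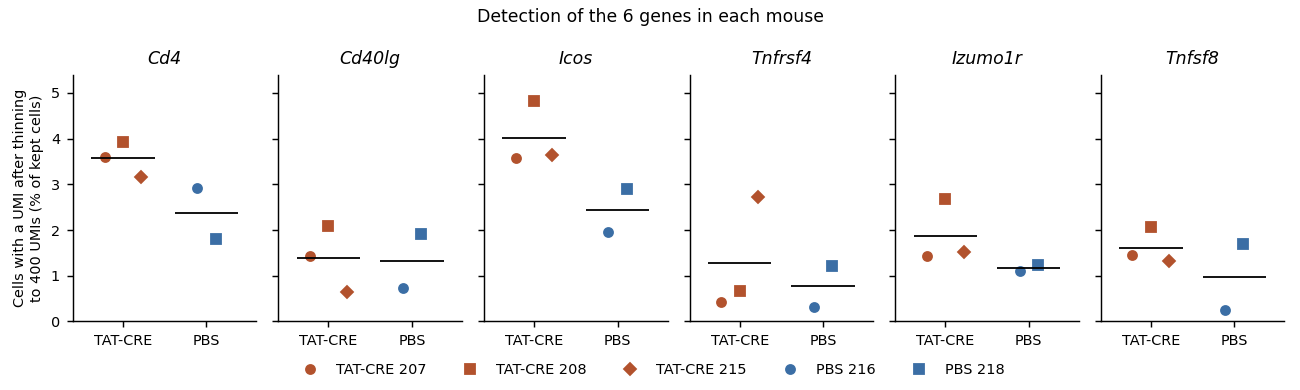
Share of kept cells with a UMI of each gene after thinning to 400 UMIs, in percent, for 3 TAT-CRE mice (left, orange) and 2 PBS mice (right, blue); each point is 1 mouse and each line a group mean. Cd4, Icos and Izumo1r show no overlap between the groups, while Cd40lg, Tnfrsf4 and Tnfsf8 do.

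Every TAT-CRE mouse thus lay above both PBS mice in 3 of the 6 thinned shares, where 9.39% of 8683 tested genes did so, and in 2 of the 6 CPM values (Icos and Izumo1r), where 9.95% did so. At least 1 of the 6 genes was found after thinning in 10.6%, 14.1% and 11.7% of cells of TAT-CRE mice and 6.78% and 9.95% of PBS mice (means 12.1% ± 1.78 and 8.37% ± 2.24, exact permutation p = 0.2, two-sided, n = 3 and 2). Without thinning the order changed, since PBS 218, the deepest library, then had the highest share: 25.1%, 22.4% and 24.8% in TAT-CRE mice and 14.2% and 25.9% in PBS mice. In sums of cells, fewer cells with a gene and less RNA per cell cannot be told apart.

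Summed over cells per mouse, 0 of the 6 genes differed between TAT-CRE and PBS mice in edgeR's quasi-likelihood test, nor did any of the 8683 genes tested (0% at an adjusted p under 0.05). At an unadjusted p under 0.05, 323 of the 8683 passed, none of them among the 6, and DESeq2 called 1 gene that is not among them. Log2 fold changes of TAT-CRE over PBS were 1.09 ± 0.61 for Tnfsf8, 0.87 ± 0.46 for Izumo1r, 0.65 ± 0.30 for Icos, 0.54 ± 0.92 for Tnfrsf4, 0.51 ± 0.33 for Cd4 and -0.01 ± 0.60 for Cd40lg (± SE, adjusted p = 0.9997 for each). Thus 5 of 6 were above 0, as were 50.6% of all genes, and their median was 0.60 against 0.01 over all genes. The direction of Tnfrsf4 rested on single mice, with -0.82 without TAT-CRE 215 and -0.09 without PBS 216. Tnfsf8 was 2.78 without PBS 218 and 0.41 without PBS 216.

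Cells with more than 1 of the 6 genes were few, but more than the single shares give. Of the 1482 cells, 258 held 1 of the 6, 60 held 2, 13 held 3 and 2 held 4. Cells with 2 of them had a median of 2224.5 UMIs, against 1507 in cells with none. For each pair, the number of cells with both was set beside the number from the product of the 2 shares within each mouse, summed over mice. All 15 pairs lay above that number without thinning (ratios 1.09 to 3.56, median 2.29) and 13 of 15 did after thinning (0.486 to 4.23, median 2.02). The pairs rest on 2 to 15 cells each without thinning. The thinned number of cells with both was smaller, from 0.171 (Cd40lg and Izumo1r) to 3.71 (Icos and Izumo1r). For comparison, Cd8a with Cd8b1, chains of 1 dimer, gave 202 cells where 134 were expected (ratio 1.51, or 1.55 thinned).

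Cd4 and Cd40lg were found together in 15 cells where 4.22 were expected (ratio 3.56, thinned 3.28). Of the 5 mice, 4 had more than expected without thinning and 3 after it. Of the 57 Cd40lg cells, 26.3% held Cd4. With Tnfsf8, Cd4 shared 12 cells where 3.77 were expected (3.19, thinned 2.49), above it in 5 of 5 mice with and without thinning. With Izumo1r it shared 11 where 4.13 were expected (2.67, thinned 2.48), above it in 3 of 5 mice, and in 4 thinned. With Icos it shared 12 where 8.63 were expected (1.39, above it in 4 of 5 mice), and with Tnfrsf4 4 where 3.18 were expected (1.26, 3 of 5 mice). Cd4 therefore went with both ligands and Izumo1r more often than with both costimulatory receptors by these ratios, a difference that was not tested.

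Among the other 5 genes, Icos and Izumo1r shared 13 cells where 4.26 were expected (ratio 3.05, thinned 4.23), above expectation in 5 of 5 mice with and without thinning. Izumo1r and Tnfrsf4 shared 5 cells where 1.56 were expected (3.21, thinned 2.02), above it in 2 of 5 mice. Tnfrsf4 and Tnfsf8 shared 5 where 1.59 were expected (3.15, thinned 2.99), above it in 4 of 5 mice, and in 3 thinned. After thinning, 2 pairs lay below expectation: Izumo1r and Tnfsf8 (ratio 0.895, with 2 cells where 1.84 were expected before thinning) and Cd40lg and Izumo1r (0.486, with 3 where 2.12 were expected). Any of the 5 was found together with Cd4 in 43 cells where 20.1 were expected (ratio 2.14, thinned 2.19), above expectation in all 5 mice. Such cells were 39.1% of the Cd4 cells and 16.2% of the cells with any of the 5.

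**Figure D2:**
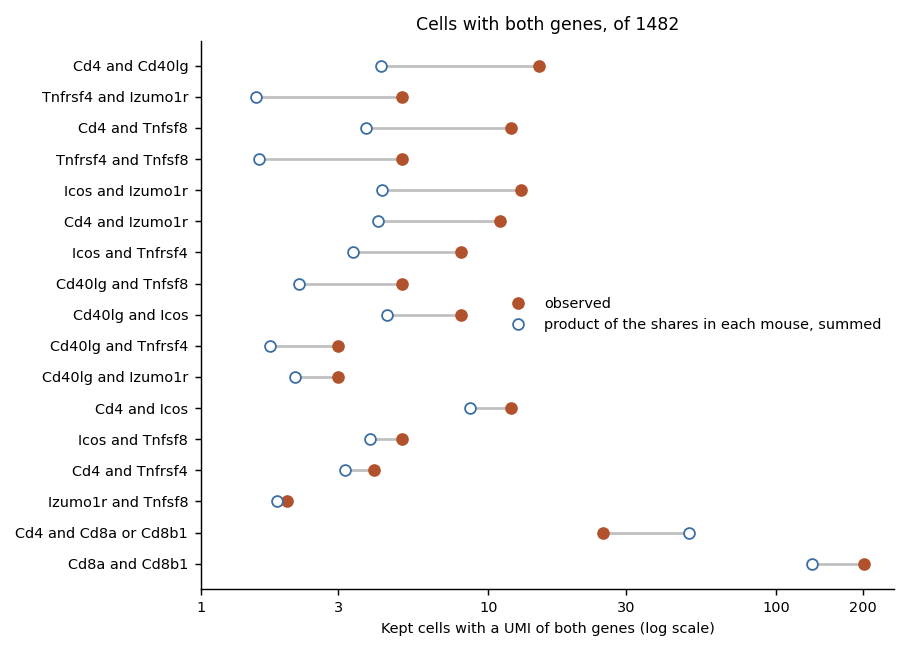
Cells with a UMI of both genes of a pair (filled points) and the number given by the product of the shares within each mouse (open points), on a log scale, over 1482 kept cells. All 15 pairs of the 6 genes lie above the open points, as do Cd8a with Cd8b1 (202 cells), while Cd4 with Cd8a or Cd8b1 lies below (25 cells). Values are without thinning, and after thinning 13 of the 15 pairs lay above.

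A RefSeq promoter window was matched for 3 of the 6 genes, Izumo1r, Tnfrsf4 and Tnfsf8, which are shown for that reason only. The 300 bases from 250 before to 50 after the RefSeq start are given in build GRCm38.p6, 5′ to 3′ on the gene's strand. Capitals mark GGAAA or its reverse complement TTTCC, the core recognised by NFAT, a factor that calcium signalling below the T cell receptor brings into the nucleus. The windows are chr9:14903718-14904017 (minus), chr4:156013445-156013744 (plus) and chr4:63861235-63861534 (minus).
Izumo1r: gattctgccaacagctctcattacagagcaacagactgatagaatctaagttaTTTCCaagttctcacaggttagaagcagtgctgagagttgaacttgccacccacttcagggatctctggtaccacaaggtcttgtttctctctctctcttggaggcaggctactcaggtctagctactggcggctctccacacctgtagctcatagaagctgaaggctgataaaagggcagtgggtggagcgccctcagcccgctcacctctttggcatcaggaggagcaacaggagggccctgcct
Tnfrsf4: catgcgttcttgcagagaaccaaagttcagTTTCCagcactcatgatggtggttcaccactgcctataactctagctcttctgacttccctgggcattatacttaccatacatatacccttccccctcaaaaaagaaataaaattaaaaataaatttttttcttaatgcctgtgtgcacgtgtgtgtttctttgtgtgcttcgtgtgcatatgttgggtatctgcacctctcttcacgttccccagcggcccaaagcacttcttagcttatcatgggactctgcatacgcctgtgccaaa
Tnfsf8: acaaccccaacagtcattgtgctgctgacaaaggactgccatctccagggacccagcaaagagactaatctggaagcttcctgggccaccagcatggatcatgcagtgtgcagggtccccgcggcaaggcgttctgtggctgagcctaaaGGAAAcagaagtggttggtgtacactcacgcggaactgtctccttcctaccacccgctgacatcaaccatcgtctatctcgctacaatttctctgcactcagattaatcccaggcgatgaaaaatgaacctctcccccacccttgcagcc
Each window held 1 match, on the reverse strand in Izumo1r and Tnfrsf4 and on the forward strand in Tnfsf8. Of 32851 RefSeq promoter windows of this length, 61.3% hold at least 1. The RUNX core TGTGGT or its reverse complement ACCACA was found once, in Izumo1r, and in 16.8% of all windows. RUNX factors silence Cd4 in the mouse CD8 lineage. The GENCODE M21 start sites lie 182, 148 and 63 bases from the RefSeq starts of Izumo1r, Tnfrsf4 and Tnfsf8. These are matches of letters only.

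Pooled over the 5 mice, the part of each gene's cells that also held Cd8a or Cd8b1 ran from 17.5% to 42.0%. Of Cd40lg cells, 10 of 57 (17.5%, exact interval 8.75% to 29.9%) did, and of Cd4 cells 25 of 110 (22.7%, 15.3% to 31.7%). Izumo1r followed with 15 of 54 (27.8%), Tnfrsf4 with 12 of 43 (27.9%) and Tnfsf8 with 16 of 49 (32.7%). Of Icos cells, 47 of 112 did (42.0%, 32.7% to 51.7%), close to the 44.4% among cells without Icos. The intervals of neighbours in this order overlap. They pool cells of 5 mice and do not cover the spread between mice. Cd8a or Cd8b1 was found in 59.2%, 25.7% and 42.6% of cells in TAT-CRE mice and 46.3% and 47.1% in PBS mice. Of the 47 Icos cells with a Cd8 chain, 19 came from TAT-CRE 207. Cells without the gene in question held Cd8a or Cd8b1 in 44.4% to 45.9% of cases, although they were shallower (median 1608 UMIs without Icos against 2239.5 with it). Set beside the number expected within each mouse, Icos met Cd8a or Cd8b1 at a ratio of 0.956 without thinning and 0.663 after it. Thinned ratios of the others, summed over mice, were 0.113 for Cd40lg, 0.211 for Cd4, 0.367 for Tnfrsf4, 0.649 for Tnfsf8 and 0.659 for Izumo1r, all below 1. By this measure Icos did not stand apart from Izumo1r and Tnfsf8. Within single mice, the thinned ratio was above 1 in 0 mice for Cd40lg, Cd4 and Icos. It was above 1 for Tnfrsf4 in TAT-CRE 207 (2.11), for Tnfsf8 in PBS 218 (1.23) and for Izumo1r in TAT-CRE 208 (1.14) and PBS 216 (1.48).

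Cd4 met Cd8a or Cd8b1 in 25 cells where 49.9 were expected (ratio 0.501, thinned 0.211). In these 25 cells the median was 1 UMI of Cd4 and 1 of Cd8a and Cd8b1 together, and their median depth was 2998 UMIs. Of Cd4 cells with 1 Cd4 UMI, 15 of 50 (30%) held Cd8a or Cd8b1, and of those with 2 or more, 10 of 60 (16.7%) did. Of the 25 cells, 10 came from TAT-CRE 207 and 8 from PBS 218, the 2 libraries of greatest depth. In empty wells, Cd8a was found in 1 and Cd8b1 in 2 of 20. Whether stray molecules or 2 cells in a well gave these double cells was not tested.

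A large part of the cells showed no coreceptor transcript. Of the 266 cells with any of the 5 genes other than Cd4, 43 held Cd4, 85 held Cd8a or Cd8b1 and 142 (53.4%) held none of the 3. The part with none ran from 44.9% of Tnfsf8 cells to 65.1% of Tnfrsf4 cells. Absence of a coreceptor UMI at this depth does not assign a lineage.

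**Figure D3:**
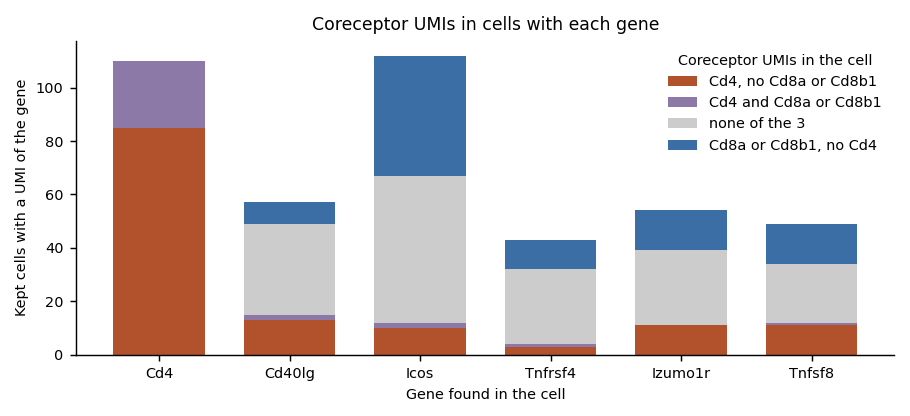
Number of kept cells with a UMI of each gene, split by the coreceptor UMIs in the same cell: Cd4 alone (orange), Cd4 with Cd8a or Cd8b1 (purple), none of the 3 (grey) and Cd8a or Cd8b1 without Cd4 (blue). Icos has the largest blue part (45 of 112 cells) and Cd40lg the smallest (8 of 57).

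To compare classes within each mouse, cells with Cd4 and neither Cd8 chain (Cd4-only, 85 cells) were set against cells with a Cd8 chain and no Cd4 (Cd8-only, 630 cells). Cd40lg was found in 13 of 85 Cd4-only cells (15.3%) and 8 of 630 Cd8-only cells (1.27%). Izumo1r and Tnfsf8 were each found in 11 Cd4-only cells (12.9%) and 15 Cd8-only cells (2.38%). Icos was found in 10 (11.8%) and 45 (7.14%), and Tnfrsf4 in 3 (3.53%) and 11 (1.75%). Any of the 5 was found in 39 Cd4-only cells (45.9%, exact interval 35.0% to 57.0%) and 81 Cd8-only cells (12.9%, 10.3% to 15.7%), at a median depth of 1717 UMIs in Cd4-only and 1985.5 in Cd8-only cells.

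Thinned to 400 UMIs, with the classes also set after thinning, the share with any of the 5 was 24.7%, 17.8% and 14.2% in Cd4-only cells of TAT-CRE mice and 15.2% and 21.3% in those of PBS mice. In Cd8-only cells it was 4.75%, 7.96% and 1.73% in TAT-CRE mice and 3.96% and 4.24% in PBS mice. Before thinning, Cd4-only cells numbered 22, 19 and 23 in TAT-CRE mice and 13 and 8 in PBS mice. After it, Cd4 was found in only 1.81% (PBS 218) to 3.93% (TAT-CRE 208) of cells. Each Cd4-only share, and each count of mice for a single gene, therefore rests on very few cells. The Cd4-only share was the higher in 5 of 5 mice, with means of 18.6% ± 4.36 and 4.53% ± 2.24 (SD, n = 5 mice) and a difference of 14.1 percentage points (exact sign-flip permutation p = 0.063, two-sided, the smallest 5 mice can give). Tnfsf8 was higher in Cd4-only cells of 5 of 5 mice (means 3.59% ± 0.850 and 0.913% ± 0.901, exact p = 0.063). Cd40lg (5.44% ± 5.88 and 0.146% ± 0.195), Izumo1r (4.49% ± 2.82 and 1.11% ± 1.29) and Icos (4.85% ± 3.62 and 2.21% ± 1.06) were higher in 4 of 5 (exact p = 0.125 each, two-sided, n = 5 mice). Tnfrsf4 was higher in 2 of 5 (1.38% ± 1.81 and 0.335% ± 0.336, exact p = 0.5). The mice that went the other way were PBS 216 for Cd40lg, PBS 218 for Icos and TAT-CRE 208 for Izumo1r.

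**Figure D4:**
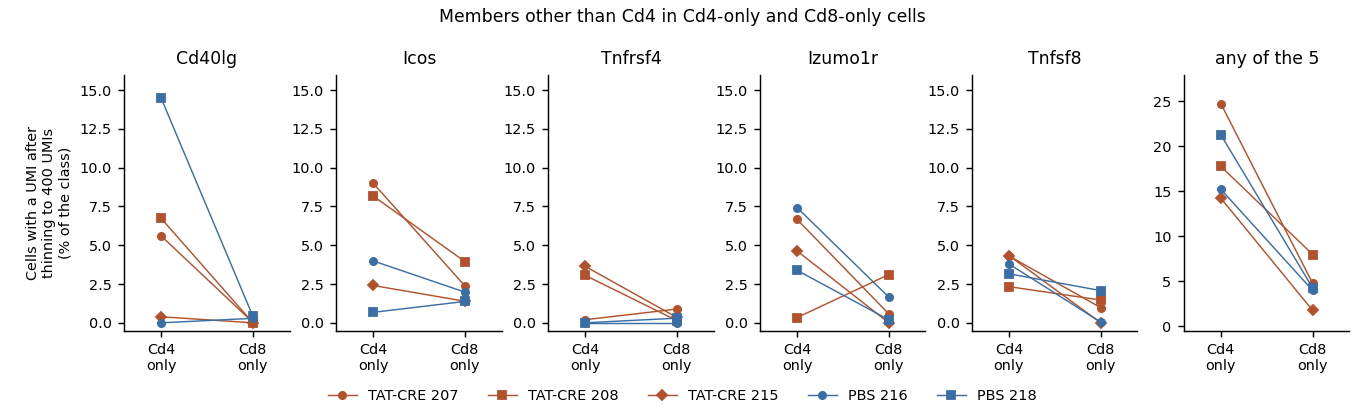
Share of Cd4-only and Cd8-only cells with a UMI of each gene after thinning to 400 UMIs, in percent, 1 line per mouse (orange TAT-CRE, blue PBS); the last panel has an axis of its own. For any of the 5 genes, all 5 lines are higher at Cd4-only (14.2% to 24.7%) than at Cd8-only (1.73% to 7.96%). Before thinning, the Cd4-only class held 8 (PBS 218) to 23 (TAT-CRE 215) cells per mouse.

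Summing the UMIs of each class per mouse, 0 of these 5 genes passed edgeR's quasi-likelihood test with mouse as a block, while 46 of 6716 genes (0.685%) did, all lower in Cd4-only cells. That count rests on the scaling: with library totals alone 2 genes were called, both lower, and DESeq2 called 3, 1 higher and 2 lower. Without the block 42 were called, 3 higher and 39 lower. The median of all genes lay at -1.18 on the log2 scale with TMM scaling and at -0.57 with library totals alone. With TMM and a filter of 50 UMIs it lay at -0.75. Since it moves with the settings, it is not a neutral baseline. Distances from it are given beside the fitted log2 fold changes. Cd40lg stood 4.44 above that median (log2 fold change 3.26 ± 1.28 SE, adjusted p = 0.267), Izumo1r 3.26 (2.08 ± 1.01, adjusted p = 0.267), Tnfsf8 3.01 (1.83 ± 1.12, adjusted p = 0.419), Tnfrsf4 2.13 (0.96 ± 1.82, adjusted p = 0.806) and Icos 1.51 (0.33 ± 0.77, adjusted p = 0.848). With library totals alone these distances were 1.51 for Icos to 4.46 for Cd40lg. The log2 fold changes themselves were then 0.94 for Icos, 1.52 for Tnfrsf4, 2.43 for Tnfsf8, 2.74 for Izumo1r and 3.89 for Cd40lg. Under that scaling the abundant ribosomal RNA genes Gm42418 and mt-Rnr2 lay at -0.073 and 0.015. At an unadjusted p under 0.05, 2 of the 5 passed (Cd40lg and Izumo1r), as did 17.6% of all genes tested. The 5 Cd4-only sums held 23672 to 61423 UMIs each. Against all cells without Cd4, in place of Cd8-only cells, the log2 fold changes of cells with Cd4 were smaller: 0.65 for Cd40lg, 0.84 for Izumo1r, 0.10 for Tnfsf8, 0.11 for Icos and -0.40 for Tnfrsf4, where the median of all genes was -1.12. Tnfrsf4 also had the opposite sign without TAT-CRE 208 (-0.19) or TAT-CRE 215 (-0.32), and the count of called genes was 15, 21 and 26 without TAT-CRE 215, 207 and 208 and 24 without PBS 216.

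Of 18 CD8 and cytotoxic genes, 16 were tested besides the chains that define the classes, and 6 were lower in Cd4-only cells: Ccl5, Ly6c2, Nkg7, Ctsw, Gzmb and Prf1. Prf1, and Id2 below, go beyond the 5 genes per direction that were to be named and were added after their values were seen. The NK cell and gamma delta T cell lists moved with this contrast. NK cell genes summed to 18.3 CPM outside ribosomal RNA in Cd4-only and 305 CPM in Cd8-only cells. Gamma delta T cell genes summed to 54.9 and 311 CPM, with Trdv4 and Sox13 at 0. Over all kept cells, Eomes, also in the cytotoxic list, gave 45.3% of the UMIs of the NK cell list. Tcrg-C2 gave 63.3% of those of the gamma delta list. Ncr1 was found in 1 kept cell, Tyrobp in 4, Trdc in 4 and Klre1 in 37. The part of these 2 lists in the result was not tested. With library totals alone 2 of the 16 cytotoxic genes passed, the chemokine Ccl5 (log2 fold change -2.25 ± 0.21) and the surface antigen gene Ly6c2 (-3.28 ± 0.53). Ccl5 averaged 715 CPM ± 375 in Cd4-only and 3175 CPM ± 774 in Cd8-only sums (SD, n = 5 mice) and was lower in 5 of 5. Of the other lists, none had a gene that passed in either direction, except Id2 (lower) in that of innate lymphoid genes. They were 12 tested costimulatory genes such as Cd28 and Tnfrsf18, 13 signalling genes below the receptors such as Lck and Traf1, 8 CD4 lineage regulators, 4 regulatory T cell genes, 5 follicular helper and inhibitory genes and 6 helper subset genes. The class contrast itself differed between TAT-CRE and PBS mice for 0 of the 5 genes and for 3 of 6716 genes (0.0447%), all of them ribosomal RNA genes.

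Cells with any of the 6 genes (333) were then compared with cells with none (1149), leaving the 6 out of the test. Here 21 of 8677 genes (0.242%) were called by edgeR's quasi-likelihood test with mouse as a block, 2 higher and 19 lower, and without the block 0 were called. The higher genes were Nrp1, a semaphorin and VEGF coreceptor found on thymic regulatory T cells in mice (log2 fold change 2.59 ± 0.46, adjusted p = 0.000153), and the early response factor Egr1 (1.83 ± 0.40, adjusted p = 0.00601), which is named here because its values were seen. Nrp1 averaged 171 CPM ± 61.1 in cells with any of the 6 and 27 CPM ± 16.9 in the others (SD, n = 5 mice) and was higher in 5 of 5. The median of all genes lay at -0.32, or -0.15 with library totals alone, and Nrp1 stood 2.91 above it under both.

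Of the CD8 and cytotoxic genes, 5 of 18 were lower in cells with any of the 6 and 0 higher: Ccl5 (-1.17 ± 0.11, adjusted p = 2.40e-16), Cd8a (-1.33 ± 0.18, adjusted p = 2.61e-08), Ly6c2 (-1.12 ± 0.19, adjusted p = 2.27e-05), Cd8b1 (-1.18 ± 0.20, adjusted p = 6.58e-05) and Nkg7 (-0.82 ± 0.18, adjusted p = 0.00641). Their list median was -1.12 against -0.32 over all genes. Cd8a averaged 284 CPM ± 73.7 in cells with any of the 6 and 624 CPM ± 125 in the others and was lower in 5 of 5 mice. Cd4, largely exclusive of the CD8 chains, was found in 110 of these 333 cells, so lower Cd8a and Cd8b1 is partly built into the class. With cells defined by the 5 genes other than Cd4, 27 of 8523 genes were called, 3 higher and 24 lower. Ccl5, Cd8a, Ly6c2 and Cd8b1 were among them. DESeq2 called 2 genes, Nrp1 (higher) and Cd8a (lower), so Ccl5, Ly6c2, Cd8b1 and Nkg7 did not pass there. With a filter of 50 UMIs only Cd8a and Ccl5 were called, both lower. The NK cell list, which shares Eomes with the cytotoxic list, summed to 134 CPM outside ribosomal RNA in cells with any of the 6 and 320 CPM in the others, and the gamma delta T cell list to 147 and 279 CPM. Their part in these differences was not tested. Of 6 tested regulatory T cell genes, 5 lay above 0 and none passed, with Ctla4 at 0.99 ± 0.38 (adjusted p = 0.561). The 17 tested costimulatory genes (10 above 0), 15 signalling genes, 8 CD4 lineage regulators, 5 follicular helper and inhibitory genes and 7 helper subset genes held no called gene. The genes on other cells that bind these members were near absent, with Cd40 and Tnfrsf8 at 0.

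Likeness in detection was measured by the phi coefficient within each mouse after thinning, averaged over 5 mice, for 4525 genes found in at least 2% of cells; it is a description over sparse counts of the same libraries. Nrp1 was most like Cd4 (0.0952, above 0 in 5 of 5 mice), found in 12.7% of Cd4 cells and 2.99% of others. Nudt21, Cnppd1, Rgs2 and Gins4 followed at 0.0593 to 0.0878, each above 0 in 3 or 4 mice. For detection of any of the other 5 genes, the inhibitory receptor gene Ctla4 (0.0942) and Nrp1 (0.0926) came first, each above 0 in 5 of 5 mice. Pea15a, the interleukin-7 receptor gene Il7r and the interleukin-2 receptor gene Il2ra followed at 0.0677 to 0.0752. Ctla4 was found in 13.2% of cells with any of the 5 and 5.10% of the others. At the other end of both orders, Ccl5 was lowest (-0.0792 with Cd4, -0.0997 with the other 5), with Cd8a and Cd8b1 next to it. All of these coefficients are small.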

How the data were processed

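Single T cells of 5 mice were analysed from UMI counts per gene and well. The authors' deposited tables hold these raw counts, and the deposited number of cells per well is also a count, per the file headers. The submitters' processing notes name bcl2fastq 2.15.0.4 and build mm10; for the aligner, the annotation and the strand setting, the choice is not given in the sources used here, so overlapping or antisense genes may share counts.

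The 6 genes and the gene lists were chosen with earlier results of these data known. Thinning to 400 UMIs used exact hypergeometric probabilities (Python 3.11.15, SciPy 1.17.1), so no random draw enters the shares. Means per mouse were compared by exact permutation. UMI counts were summed per mouse, or per mouse and cell class, and genes with 20 or more UMIs were tested by edgeR 4.0.16's quasi-likelihood test (TMM, Benjamini-Hochberg, threshold 0.05; R 4.3.3), checked on simulated data. SE is the log2 fold change over the root of F. DESeq2 1.42.0 was an alternative, with other scalings, filters and cell limits and each mouse left out. Genes named besides the 6, Cd8a and Cd8b1 were at most 5 listed genes per direction of smallest p among those called in the class contrasts, and the 5 most alike in detection; Prf1, Id2 and Egr1 were added after their values were seen. Doublets were not called; each well was labelled as holding at most 1 cell. Whether libraries are separate animals is not stated, so p-values measure the spread between libraries. Each mouse had a plate of its own, so plate and mouse cannot be told apart. Positions come from GENCODE M21, promoters from RefSeq.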

Additional observations from a re-analysis of the deposited data

Results flagged for a closer look

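The difference in the class contrast (Cd4-only against Cd8-only cells) between TAT-CRE and PBS mice passed edgeR's quasi-likelihood test for 3 ribosomal RNA genes and for none of the 6 genes described. The log2 difference, TAT-CRE minus PBS, was 0.531 for Gm42418 (adjusted p = 5.64e-08), 0.600 for Gm26917 (adjusted p = 0.00464) and 0.442 for mt-Rnr2 (adjusted p = 0.00882). The median difference of all 6716 genes was 0.93, so relative to it the values were -0.40, -0.33 and -0.49. With library totals alone the differences were 0.11, 0.18 and 0.03 and 0 genes passed.

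Wells left out of the comparisons also held the 6 genes. Of 195 wells with 1 cell and over 30% mitochondrial UMIs, 45 held a UMI of any of them (23.1%, exact 95% interval 17.4% to 29.6%), against 333 of 1482 kept cells (22.5%) and 0 of 20 empty wells. The median depth of these wells was 1046 UMIs, against 40 in empty wells. Of 223 wells with 1 cell and under 400 UMIs, 8 did (3.59%).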

How the results depend on the processing

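No paired analysis was possible because the groups share no replicate number; mouse was a block only between classes of cells. The 6 genes were called in no alternative. For TAT-CRE against PBS, DESeq2 called 1 gene and no filter on low counts 8 (4 in each direction), against 0. For Cd4-only against Cd8-only cells, DESeq2 called 3, library totals 2 and a filter of 50 UMIs 18, against 46; leaving out a mouse gave 15 to 38. For the difference of that contrast between the groups, 0 were called without ribosomal RNA genes, at 1000 UMIs, by DESeq2, with library totals, at 50 UMIs, with singleton-paired TMM (added after seeing the data) or without the replicate block, 1 without the mitochondrial limit, and 0 to 4 without 1 mouse, against 3. For cells with any of the 6, the counts were 12 without the mitochondrial limit, 11 at 1000 UMIs, 2 by DESeq2, 9 with library totals, 2 at 50 UMIs and 0 without the replicate block, against 21; without 1 mouse 13 to 24. The ratio of co-detection of Cd4 with any of the other 5 genes stayed between 1.92 and 2.51. The 15 single pairs were computed only with and without thinning. The class difference in the share with any of the other 5 stayed between 7.96 and 37.1 percentage points.

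Signs of 3 genes turned. Cd40lg, TAT-CRE over PBS, was 0.049 at 1000 UMIs and 0.11 with library totals, and -0.48 to 0.77 without 1 mouse. Its share difference was -0.41 points without thinning, -0.15 at 200 UMIs, -0.0066 without ribosomal RNA genes and -0.0569 without the mitochondrial limit, and -0.54 to 0.65 without 1 mouse. Tnfrsf4 was -0.82 to 1.89 without 1 mouse; its share difference was -0.18 without thinning and -0.22 to 0.945 without 1 mouse, and its class contrast -0.40 against all other cells and -0.32 to 1.80 without 1 mouse. The share difference of Tnfsf8 was -0.0722 to 1.38 without 1 mouse. The causes were not tested. Tests of shares cannot pass 0.05 in this design, and 43 to 112 cells per gene limit them.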
